A study of Rattus norvegicus with 18 samples.

Results

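The microRNAs (miRNAs) miR-10 and miR-196 are encoded inside the Hox gene clusters, and their levels were described here in rat dorsal root ganglia (DRG), which hold the cell bodies of sensory neurons. Members were all rows of the count table named miR-10a, miR-10b, miR-196a or miR-196b, on either arm of the hairpin precursor, and this rule found 8 of the 753 miRNAs listed. The 8 rows were rno-miR-10a-5p, rno-miR-10a-3p, rno-miR-10b-5p, rno-miR-10b-3p, rno-miR-196a-5p, rno-miR-196a-3p, rno-miR-196b-5p and rno-miR-196b-3p, where rno stands for the rat and is left out below. Of these, 6 had at least 1 count in some library, and 4, all of them miR-10 arms, passed the detection filter, which asked for over 10 counts in no fewer than 6 of 18 libraries.

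Small RNA libraries were made from the DRG at cervical levels 6 to 8 of 18 adult Lister Hooded rats, with 6 rats in each of 3 groups. Naive rats were unoperated. In rats labelled bPYX both corticospinal tracts were transected in the medullary pyramids, and the day after, forelimb flexor muscles on 1 side were injected with a serotype AAV1 adeno-associated viral vector. The vector expressed, from the CMV promoter, green fluorescent protein in the bPYX+GFP group and human prepro-neurotrophin-3 in the bPYX+NT3 group, neurotrophin-3 being a growth factor for proprioceptive and other sensory neurons. Each library came from a single rat and, in injected rats, combined the ganglia of the injected side. Injured rats were sampled 10 weeks after injury. No group had the injury without a vector, so the injury and the vector cannot be told apart in bPYX+GFP against naive. The ganglia were whole tissue, in which fewer cells of a type and less RNA per cell cannot be told apart.

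Hox genes are transcription factor genes whose order along the chromosome matches the order of their expression from head to tail. Vertebrate miRNA genes of the miR-10 family lie near the Hox paralogues of the hindbrain and cervical levels, and those of the miR-196 family lie further towards the end of the cluster that is used in the trunk and tail. A miRNA represses messenger RNAs that pair with its seed, which is bases 2 to 8 counted from the 5′ end. Targets of both families include Hox messenger RNAs, and miR-196 is known for cleaving that of Hoxb8. In the RefSeq annotation of assembly GRCr8, Mir10a lay between Hoxb5 and Hoxb4, Mir10b lay within Hoxd4, Mir196a lay between Hoxc10 and Hoxc9, and Mir196b lay between Hoxa9 and Hoxa10.

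The mature sequences that RefSeq (GRCr8) gives for the abundant 5p arms of miR-10 are shown first because they hold nearly all member counts. Capitals mark the seed.
miR-10a-5p: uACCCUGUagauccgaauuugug
miR-10b-5p: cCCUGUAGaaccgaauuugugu
The annotated start of miR-10b-5p lay 2 bases further along than that of miR-10a-5p, so bases 2 to 8 of these entries differed. Where the sequences overlapped, 20 of 21 bases were equal, and the difference was U12A, counted from the 5′ end of miR-10a-5p. The Mir10b hairpin holds the bases ua before the annotated start, and the window of it that aligns with miR-10a-5p is given for comparison.
Mir10b hairpin window: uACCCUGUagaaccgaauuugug
From this start, bases 2 to 8 are ACCCUGU, as in miR-10a-5p. Counts were given per annotated miRNA, so the start at which reads of miR-10b-5p began was not analysed here.

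The 3p arms, cut from the other side of the same hairpins, shared less sequence, and their seeds differed.
miR-10a-3p: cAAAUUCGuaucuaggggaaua
miR-10b-3p: aCAGAUUCgauucuaggggaa
Over the overlap 17 of 20 bases were equal, with the differences A3G, U9A and A10U counted from the 5′ end of miR-10a-3p.

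The 5p arms of miR-196 are shown with that of miR-196c, a family member outside the naming rule that is encoded between Hoxb13 and Hoxb9. All of them have the same seed.
miR-196a-5p: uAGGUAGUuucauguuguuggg
miR-196b-5p: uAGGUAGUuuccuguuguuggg
miR-196c-5p: uAGGUAGUuucguguuguuggg
The entries differed at a single position, with A12C between miR-196a-5p and miR-196b-5p and A12G between miR-196a-5p and miR-196c-5p, and 21 of 22 bases were equal in each case. Reads that carry an error at that position, or that fit several places, could be counted for another member or for none, and 28.0% to 35.1% of all reads in a library were set aside for low alignment quality.

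Counts given to miRNAs ranged from 3879788 to 6919863 per library, which was 32.4% to 38.2% of all reads. Levels below are in CPM, the counts of a miRNA per M miRNA counts (M is the SI prefix mega) after TMM scaling (trimmed mean of M-values), whose factors ran from 0.909 in bPYX+NT3 replicate 4 to 1.14 in bPYX+NT3 replicate 3. The latter library stood apart from its group. Its counts differed from those of the other 5 by a chi-square of 189 to 552 for each degree of freedom, against 46.8 to 279 among the others. Of 6 markers of sensory neurons, miR-182, miR-96-5p and miR-128-3p were abundant, with medians of 25335, 4209 and 8226 CPM, whereas miR-124-3p was at or below 1.61 CPM, miR-9a-5p had 3 counts in all and miR-183-5p was listed at 0. The summed level of the list was 32282 to 40681 CPM in naive rats, 36373 to 41549 CPM with GFP and 31014 to 40911 CPM with NT3. Of 4 glial markers, miR-204-5p carried nearly all of the summed level of 5316 to 11923 CPM, and miR-338-3p and miR-219a-2-3p were listed at 0.

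By counts, miR-10a-5p and miR-10b-5p were among the most abundant miRNAs of these ganglia, whereas the miR-196 members were at or near 0. miR-10a-5p took 16.6% ± 1.44 of all miRNA counts (SD, n = 18), and miR-10b-5p took 6.44% ± 0.43. By mean share they had ranks 2 and 3 of all miRNAs in the count table. Some miRNAs, such as miR-183-5p, were listed at 0 there, so the ranks hold only for the counts as listed. How shares of counts relate to the amounts of different miRNAs in the tissue was not tested. miR-99a-5p, a relative of miR-10 encoded outside the Hox clusters, had rank 1, with 20.7%. Within libraries, miR-10a-5p had rank 2 in 16 and rank 1 in 2, which were bPYX+NT3 replicates 3 and 4. miR-10b-5p had rank 3 in 16 libraries and rank 4 in the other two, naive replicate 2 and bPYX+NT3 replicate 3. Together the pair took 20.9% to 23.0% of counts in naive rats, 20.6% to 25.9% in bPYX+GFP rats and 21.8% to 27.6% in bPYX+NT3 rats, so the groups overlapped.

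**Figure D1:**
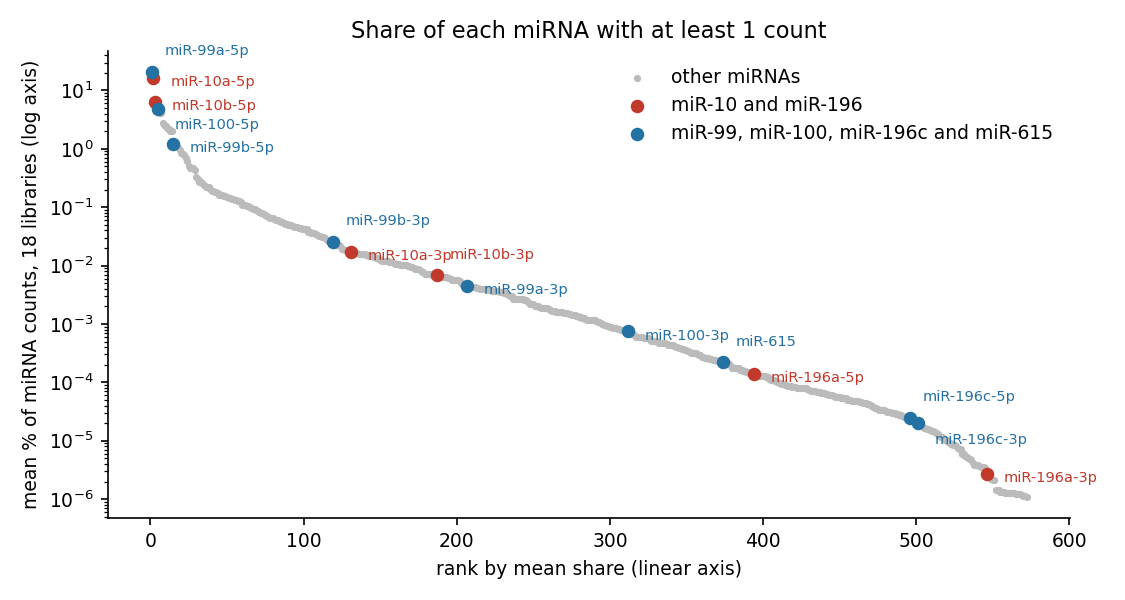
Mean share of miRNA counts over 18 libraries (percent, log axis) against rank by that share (linear axis), with 1 point for each miRNA that had a count. The 5p arms of miR-10 stand at ranks 2 and 3, their 3p arms at ranks 131 and 187, and miR-196a-5p at rank 394.

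The order of the levels was miR-10a-5p, miR-10b-5p, miR-10a-3p, miR-10b-3p and miR-196a-5p, and no neighbours in this order overlapped over the 18 libraries. miR-10a-5p ranged from 129587 to 223070 CPM and miR-10b-5p from 53064 to 80376 CPM. miR-10a-3p ranged from 117 to 210 CPM and miR-10b-3p from 52.6 to 84.2 CPM. The 3p arm was thus a small part of each precursor. It made up 0.103% of the counts of both arms for miR-10a and 0.105% for miR-10b. Among the 116 precursors with at least 10000 counts over both arms, these shares of the minor arm were the 28th and 29th lowest, and the median was 1.55%. Like miR-10, the relatives miR-99a and miR-100 had minor arm shares of 0.0224% and 0.0154%, whereas that of miR-99b was 2.07%.

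The first comparison asked how levels differed between injured rats given the GFP vector and naive rats. None of the 4 miR-10 arms tested was called. In naive rats miR-10a-5p was 148802 CPM at the lowest, 159248 at the median and 172685 at the highest, and in bPYX+GFP rats it was 129587, 175348 and 197893 CPM. The groups overlapped, although 5 of the 6 bPYX+GFP libraries were above the naive mean. Its log2 fold change was 0.11 ± 0.09 (SE, edgeR quasi-likelihood test, adjusted p = 0.534), with a 95% interval of -0.08 to 0.30. Leaving out 1 library at a time moved it between 0.067 and 0.16.

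miR-10b-5p, the other abundant arm, was 60663, 63490 and 73806 CPM in naive rats (lowest, median, highest) and 53064, 68264 and 73861 CPM in bPYX+GFP rats. The range in naive rats lay inside the range in bPYX+GFP rats. Its log2 fold change was 0.02 ± 0.08 (SE, edgeR, adjusted p = 0.932), with a 95% interval of -0.15 to 0.20.

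The 3p arms are usually discarded when the 5p arm is loaded into the silencing complex. miR-10a-3p was 158, 162 and 190 CPM in naive rats (lowest, median, highest) and 161, 177 and 210 CPM in bPYX+GFP rats, and the edgeR log2 fold change was 0.12 ± 0.09 (SE, adjusted p = 0.456). miR-10b-3p was 56.4, 67.2 and 71.4 CPM in naive rats and 65.4, 72.6 and 84.2 CPM in bPYX+GFP rats, and the edgeR log2 fold change was 0.17 ± 0.09 (SE, unadjusted p = 0.0749, adjusted p = 0.291). For both 3p arms the groups overlapped, and 5 of the 6 bPYX+GFP libraries were above the naive mean.

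Of all 373 miRNAs tested between bPYX+GFP and naive, 9 had an adjusted p under 0.05 in edgeR with Benjamini-Hochberg adjustment, which is 2.41%, and 0 of the 4 miR-10 arms were among them. The number of calls depended on single libraries and ran from 3, without naive replicate 4 or bPYX+GFP replicate 1, to 20, without naive replicate 2. DESeq2 called 23 miRNAs, also with none of the 4. At an unadjusted p under 0.05 the share was 21.2% of all miRNAs and 0 of 4 members, and the groups did not overlap for 4.02% of all miRNAs and 0 of 4 members. All 4 members had a log2 fold change above 0, against 50.9% of all miRNAs, and their median was 0.12 against 0.00, although miR-10b-5p was at -0.01 without bPYX+GFP replicate 4. The members share precursors and libraries, so the 4 signs are not independent.

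**Figure D2:**
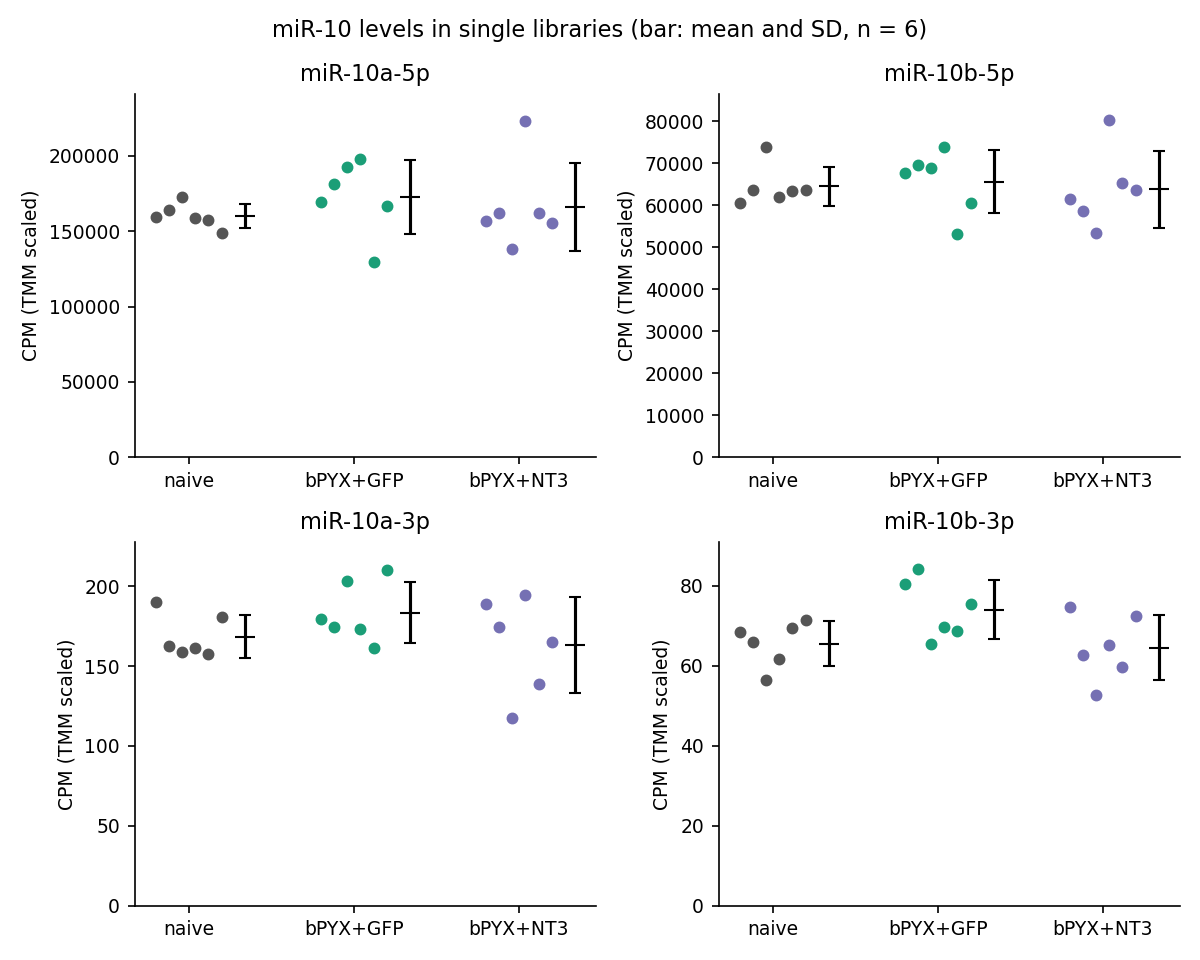
Level of each miR-10 arm in every library (CPM after TMM scaling, linear axes that start at 0), by group, with the mean and SD of 6 rats beside the points. The groups overlap in every panel, and the widest spread of miR-10a-5p is in bPYX+NT3, where replicate 4 stands at 223070 CPM.

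The second comparison asked how neurotrophin-3 differed from the control vector in injured rats, and it shares the bPYX+GFP libraries with the first. miR-10a-5p in bPYX+NT3 rats was 138456 CPM at the lowest, 159229 at the median and 223070 at the highest, and its log2 fold change against bPYX+GFP was -0.04 ± 0.11 (SE, edgeR, adjusted p = 0.912), with a 95% interval of -0.28 to 0.20. Of these 6 libraries, 5 were below the bPYX+GFP mean and replicate 4 was above every other library of the series. Without that replicate the log2 fold change was -0.15 (edgeR, adjusted p = 0.447). miR-10b-5p was 53311, 62622 and 80376 CPM in bPYX+NT3 rats (lowest, median, highest), and the edgeR log2 fold change was -0.03 ± 0.10 (SE, adjusted p = 0.939), with a 95% interval of -0.24 to 0.18.

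miR-10a-3p was 117, 170 and 194 CPM in bPYX+NT3 rats, with a log2 fold change against bPYX+GFP of -0.16 ± 0.11 (SE, edgeR, adjusted p = 0.668). miR-10b-3p was 52.6, 64.0 and 74.7 CPM, and the edgeR log2 fold change was -0.19 ± 0.10 (SE, unadjusted p = 0.0755, adjusted p = 0.587). The 2 groups overlapped for both arms. With an edgeR adjusted p under 0.05 there were 0 members of 4 and 0% of all 373 miRNAs, and DESeq2 also called 0 miRNAs. At an unadjusted p under 0.05 it was 8.58% of all miRNAs and 0 of 4 members. A log2 fold change above 0 was found for 49.9% of all miRNAs and 0 of 4 members, whose median was -0.10 against -0.00 for all. The sign of miR-10b-5p turned to 0.01 without bPYX+GFP replicate 2. Without bPYX+NT3 replicate 3, the library that stood apart, the log2 fold changes were -0.02 for miR-10a-5p, -0.01 for miR-10b-5p, -0.11 for miR-10a-3p and -0.17 for miR-10b-3p.

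Between bPYX+NT3 and naive rats, which shares libraries with both other comparisons, the log2 fold changes were 0.05 ± 0.10 for miR-10a-5p, -0.02 ± 0.09 for miR-10b-5p, -0.05 ± 0.12 for miR-10a-3p and -0.02 ± 0.10 for miR-10b-3p (SE, edgeR, adjusted p = 0.834, 0.950, 0.886 and 0.945). The 95% intervals ran from -0.16 to 0.26 for miR-10a-5p and from -0.21 to 0.18 for miR-10b-5p. Again 0 of 4 members were called by edgeR, against 0% of all 373 miRNAs, and DESeq2 called 1 miRNA, not a member. At an unadjusted p under 0.05 it was 13.7% of all miRNAs and 0 of 4 members, and the groups did not overlap for 1.34% of all miRNAs and 0 of 4 members. A log2 fold change above 0 was found for 47.7% of all miRNAs and for 1 of 4 members. These signs were unstable. That of miR-10a-5p turned to -0.03 without bPYX+NT3 replicate 4, and those of the other 3 arms turned positive, to at most 0.04, under scaling by library size alone. They were also positive, at 0.03 each, without bPYX+NT3 replicate 3, where miR-10a-5p was at 0.10.

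**Figure D3:**
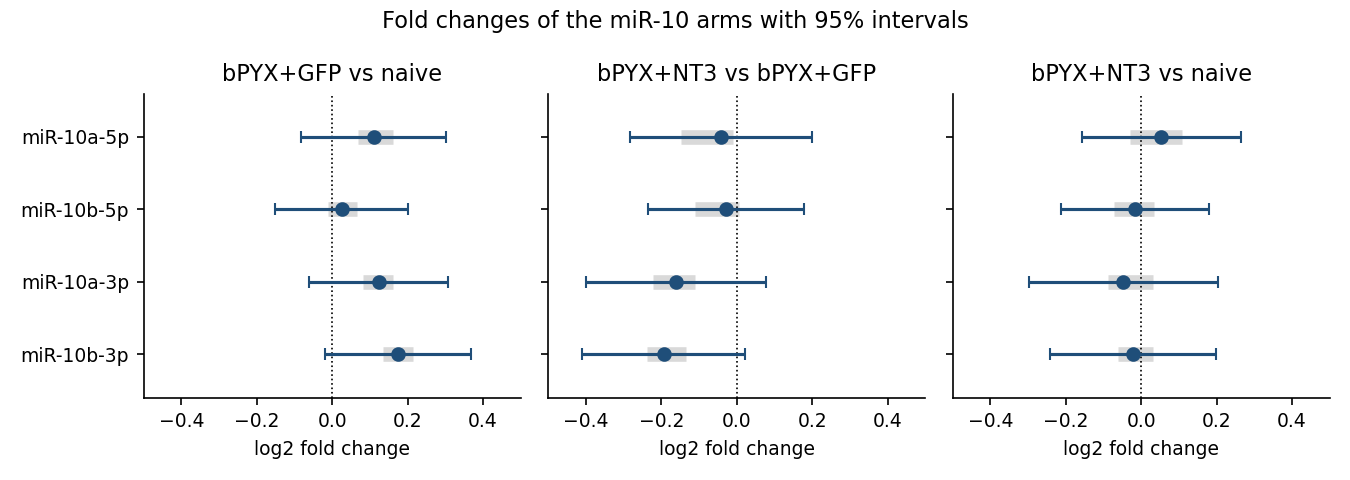
Log2 fold change of each miR-10 arm in each comparison, with its 95% interval (edgeR, linear axis) and, as a grey band, the range over fits that leave out 1 library. Every interval includes 0, and the bands lie inside the intervals.

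The spread between rats of 1 group differed for miR-10a-5p by group. Its coefficient of variation was 4.92% in naive rats, 14.2% with GFP and 17.5% with NT3. Single libraries carried much of this, since it was 7.58% in bPYX+GFP without replicate 5, at 129587 CPM, and 6.23% in bPYX+NT3 without replicate 4. No test was made of these spreads. The TMM factors of these libraries, 1.13 and 0.909, were near the ends of the range over all libraries. As a share of miRNA counts, without TMM scaling, the coefficients of variation were smaller, at 3.82%, 8.89% and 10.3% in naive, bPYX+GFP and bPYX+NT3 rats. On that scale too single libraries carried much of the spread, which was 5.59% in bPYX+GFP without replicate 5, 2.14% in naive without replicate 6 and 3.70% in bPYX+NT3 without replicate 4, the last being below the value for all 6 naive rats. The SD of log2 CPM within groups was 0.19 for miR-10a-5p, 0.16 for miR-10b-5p, 0.19 for miR-10a-3p and 0.15 for miR-10b-3p. The median over all miRNAs tested was 0.22, and it was 0.18 for the 167 with a mean above 100 CPM.

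Ratios within a library do not depend on how libraries are scaled. For each count of miR-10b-5p there were 2.49 ± 0.13 counts of miR-10a-5p in naive rats, 2.63 ± 0.14 with GFP and 2.60 ± 0.14 with NT3 (SD, n = 6). The ranges were 2.34 to 2.63, 2.44 to 2.80 and 2.44 to 2.78, so the groups overlapped throughout. In log2, bPYX+GFP differed from naive by 0.08 ± 0.04 (SE), with 5 of 6 libraries above the naive mean (2-sided exact permutation test over every split of the 12 libraries, p = 0.0996, adjusted p = 0.511 over 9 ratio tests). The differences were -0.02 for bPYX+NT3 against bPYX+GFP (exact permutation p = 0.729, adjusted p = 0.923) and 0.06 for bPYX+NT3 against naive (exact permutation p = 0.182, adjusted p = 0.511).

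The ratio of the arms of a hairpin compares the kept strand with the discarded strand. The 5p arm of miR-10a had 957 ± 104 counts for each count of the 3p arm in naive rats, 946 ± 135 with GFP and 1033 ± 151 with NT3 (SD, n = 6). For miR-10b it was 995 ± 161, 893 ± 129 and 996 ± 151. The smallest exact permutation p of these 6 differences between groups was 0.221, against a smallest possible value of 0.00216, and the log2 differences ran from -0.15 to 0.16.

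**Figure D4:**
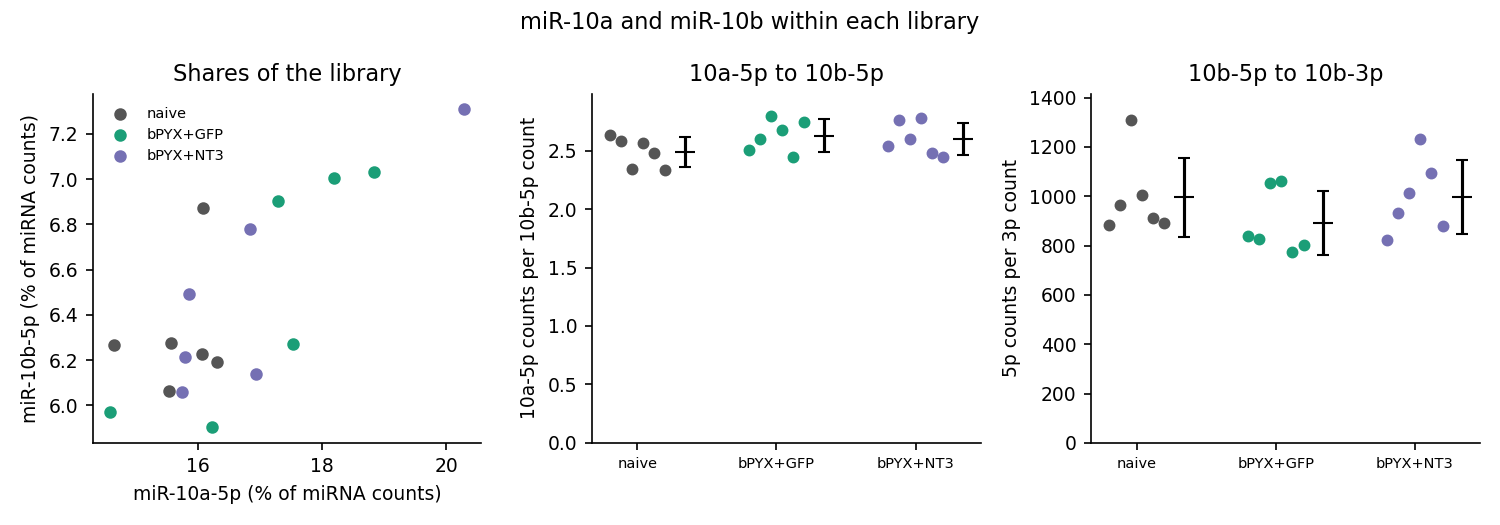
The left panel plots the share of miR-10b-5p against that of miR-10a-5p in each library (percent of miRNA counts, axes that do not start at 0), coloured by group. The other panels plot, by group with mean and SD of 6 rats, the counts of miR-10a-5p for each count of miR-10b-5p and the counts of miR-10b-5p for each count of miR-10b-3p, and the groups overlap in both.

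Libraries with more miR-10a-5p also had more miR-10b-5p. Over 18 libraries Pearson's r of log2 CPM was 0.902 (permutation p = 1e-05, the smallest that the resamples can give, adjusted p = 3e-05 over 3 pairs) and Spearman's rho was 0.763 (permutation p = 0.0004, adjusted p = 0.0012). Within groups r was 0.678 for naive rats, 0.952 with GFP and 0.947 with NT3, and rho was 0.2, 0.943 and 0.771, so the rank relation was weak among naive rats. The pooled r was 0.814 without bPYX+GFP replicate 5 and bPYX+NT3 replicate 4, the libraries farthest from the median. The values share the library scaling, and with scaling by library size alone r was 0.758. Because the sequences of miR-10a-5p and miR-10b-5p are near-identical, some reads of 1 could have been counted for the other, which was not tested.

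The arms of 1 precursor went together less. For miR-10a-5p and miR-10a-3p r was 0.498 (permutation p = 0.0374, adjusted p = 0.0562) and rho was 0.393 (permutation p = 0.105, adjusted p = 0.157). Without the same 2 libraries r was 0.490. Within groups r was -0.48, 0.431 and 0.663 in naive, bPYX+GFP and bPYX+NT3, and under scaling by library size alone the pooled r was 0.112, so the relation did not hold. For miR-10b-5p and miR-10b-3p r was 0.161 (permutation p = 0.524, adjusted p = 0.524) and rho was 0.0857 (permutation p = 0.734, adjusted p = 0.734), with r = -0.738, 0.191 and 0.381 within the groups in the same order and 0.289 without those 2 libraries.

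As a description, the miRNAs whose log2 CPM was most like that of miR-10a-5p over the 18 libraries, among 369 outside the members, were miR-99b-5p (r = 0.883), miR-674-3p (r = 0.736) and miR-100-5p (r = 0.735). For miR-10b-5p they were miR-99b-5p (r = 0.898), miR-100-5p (r = 0.820) and miR-211-5p (r = 0.776). Under scaling by library size alone, miR-99b-5p was still the most similar to each, with r = 0.705 and r = 0.691, whereas the others depended on the scaling. With miR-10a-5p the values were then r = 0.438 for miR-674-3p (rank 8) and r = 0.306 for miR-100-5p (rank 23), and with miR-10b-5p they were r = 0.473 for miR-100-5p (rank 4) and r = 0.495 for miR-211-5p (rank 2).

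The relatives miR-99 and miR-100 resemble miR-10 in sequence, and their 5p arms are given with the seed in capitals where the RefSeq table holds them.
miR-99b-5p: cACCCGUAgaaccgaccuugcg
miR-100-5p: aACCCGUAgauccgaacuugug
They share a seed that is not that of miR-10a-5p. Over 22 aligned bases miR-100-5p differed from miR-10a-5p by C3A, U6C and U18C, counted from the 5′ end of miR-10a-5p. The 5p arms of miR-10a, miR-10b, miR-99a, miR-99b and miR-100 together took 49.8% ± 2.50 of miRNA counts (SD, n = 18), between 42.7% and 53.9% in a library. None of the 6 arms of miR-99a, miR-99b and miR-100 had an adjusted p under 0.05 in any comparison (edgeR). The lowest were for miR-99a in bPYX+NT3 against naive, where the log2 fold change was 0.53 ± 0.17 for miR-99a-3p (SE, edgeR, unadjusted p = 0.00724, adjusted p = 0.191) and -0.24 ± 0.11 for miR-99a-5p (SE, edgeR, unadjusted p = 0.0505, adjusted p = 0.349). Replicates 3 and 5 of bPYX+NT3 stood apart in both arms. They were the highest of their group for miR-99a-3p (65.3 and 84.1 CPM, next 48.1). For miR-99a-5p they were its lowest (134933 and 163562 CPM, next 192039).

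The miR-196 family, which marks more posterior levels than the cervical ganglia sampled here, was nearly undetected, with 1 library as the exception. miR-196a-5p had 0, 2, 0, 1, 3 and 0 counts in naive replicates 1 to 6. In bPYX+GFP replicates 1 to 6 it had 8, 0, 3, 3, 1 and 0, and in bPYX+NT3 replicates 1 to 6 it had 2, 3, 79, 0, 1 and 1. Replicate 3 of bPYX+NT3 thus held 79 of the 107 counts of the series, and the other 17 libraries held 0 to 8 each. Per M miRNA counts, without TMM scaling, it had 19.0 (95% Wilson interval 15.3 to 23.7), and the next highest library, bPYX+GFP replicate 1, had 1.77 (0.897 to 3.49). These intervals cover counting error only, since PCR copies of a molecule could not be told from other reads. The member was below the detection filter and was not tested between groups.

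**Figure D5:**
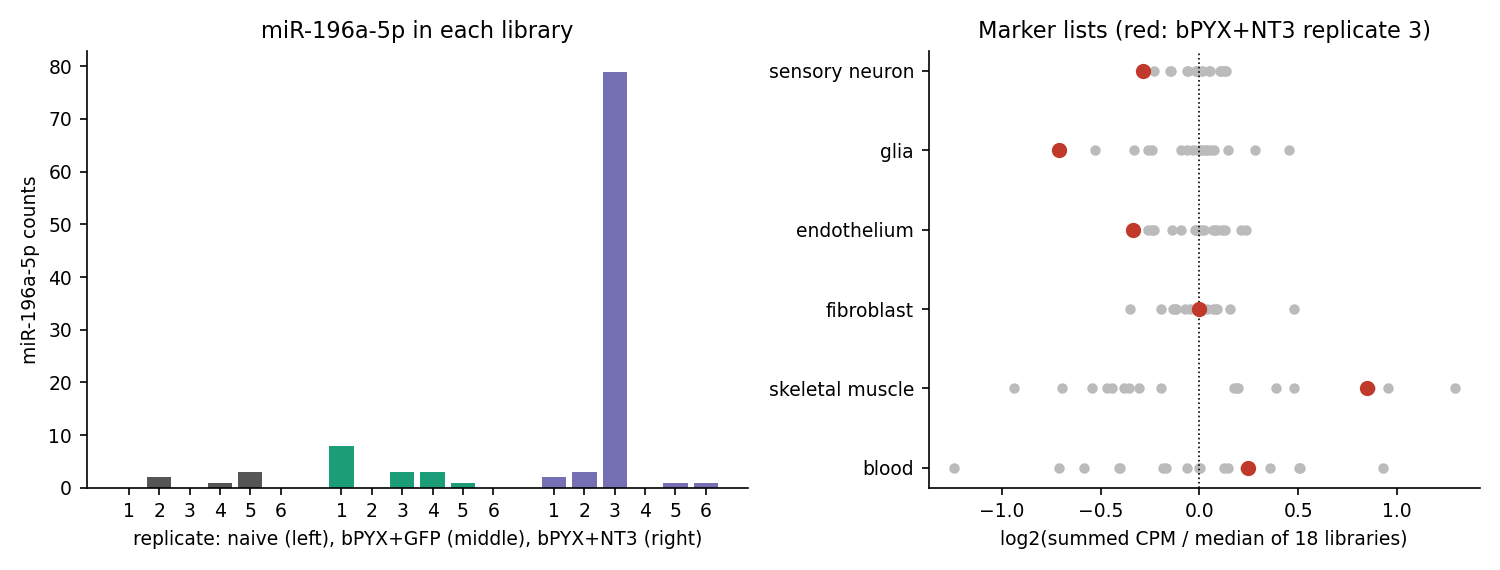
The left panel plots counts of miR-196a-5p in each library by group (bars, linear axis), where bPYX+NT3 replicate 3 stands at 79 counts and the other 17 libraries at 0 to 8. The right panel plots, with 1 point for each library, the log2 of the summed CPM of each marker list over its median in 18 libraries, and bPYX+NT3 replicate 3 (red) is the lowest for sensory neuron, glia and endothelium with this TMM scaling, but only for glia without it.

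miR-196a-3p, the other arm of this precursor, had 2 counts in all, both in bPYX+NT3 replicate 3. miR-196b-5p and miR-196b-3p were listed at 0 in all 18 libraries, where a count of 0 allows up to 0.434 to 0.773 per M by the limit of 3 counts of the library total, and the upper 95% Wilson bounds were 0.555 to 0.990 per M. Such a 0 does not show absence in this table, because miR-183-5p, miR-1-3p and miR-133a-3p were also listed at 0. miR-196c-5p had 0 to 3 counts per library and 21 in all. It had 3 counts in bPYX+NT3 replicate 3, as in naive replicate 6, so the counts of miR-196a-5p there had no match of like size in miR-196c-5p. The other arm, miR-196c-3p, had 0 to 3 counts per library and 16 in all, and its highest count, 3, was in bPYX+NT3 replicate 3.

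Marker lists of other cell types were read in the same library, bPYX+NT3 replicate 3, which had the highest TMM factor. After TMM scaling the summed levels of 6 sensory neuron markers (31014 CPM), 4 glial markers (5316 CPM) and 2 endothelial markers (19521 CPM) were the lowest of the 18 libraries. Those of skeletal muscle markers (246 CPM, 4 of 5 markers in the table), blood markers (891 CPM, 6 of 7 in the table) and 3 fibroblast markers (1765 CPM) were the 4th, 5th and 10th highest. The single blood markers differed on this scale. From the highest, miR-451-5p, miR-144-3p and miR-144-5p had ranks 12, 9 and 10 in this library, whereas miR-142-3p, miR-142-5p and miR-223-3p had ranks 3, 4 and 1. The endothelial marker miR-126a-5p was listed at 0, so the endothelial sum was that of miR-126a-3p alone. The muscle markers miR-1-3p and miR-133a-3p were listed at 0, while miR-1b, of the same family as miR-1-3p but not on the list, took 0.962% of miRNA counts on average, so the muscle sum covers only part of the muscle miRNAs. Per M miRNA counts without TMM scaling, the glial sum of this library (6043) was still the lowest of the 18, whereas 4 libraries were lower for sensory neuron and 3 for endothelium, and muscle, blood and fibroblast had ranks 2, 4 and 2 from the highest. The part of these lists in the level of miR-196a-5p was not tested. The miRNAs most like miR-196a-5p over the 18 libraries were miR-195-5p (r = 0.705), miR-449a-5p (r = 0.661) and miR-16-5p (r = 0.659), and without this library these were 0.421, 0.355 and 0.0703, so the likeness rests on it.

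miR-615, a further Hox cluster miRNA, encoded within Hoxc5 and Hoxc6, was low in all groups, at 2.02 ± 1.00 CPM in naive rats, 2.43 ± 0.65 CPM with GFP and 2.23 ± 1.17 CPM with NT3 (SD, n = 6). The groups overlapped, and its adjusted p was 0.710 for bPYX+GFP against naive, 0.912 for bPYX+NT3 against bPYX+GFP and 0.926 for bPYX+NT3 against naive (edgeR).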

How the data were processed

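The authors prepared small RNA libraries with a NEBNext kit, for which no molecular identifiers are stated, trimmed adapters, aligned reads with Bowtie2 to Rnor_5.0 and counted them with HTSeq-count. bcl2fastq 1.8.4 is named in the submitters' processing notes. The versions of Bowtie2 and HTSeq and the annotation release are not given in the sources used here. The deposited values are raw counts of reads for each mature miRNA, not normalized. Besides 753 miRNAs the table held 5 rows for reads not given to any miRNA, which entered neither library sizes nor tests.

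Members and lists were chosen with earlier results of these data known. Libraries were grouped by their labels, and the rats are separate animals. The named miRNAs were all rows of the naming rule, miR-615, miR-99a, miR-99b, miR-100 and, for each of miR-10a-5p, miR-10b-5p and miR-196a-5p, the 3 most correlated miRNAs. miR-196c and markers named singly were chosen after their values were seen. The study dropped naive replicate 1 as an outlier; the main fits retain it, and 1 alternative drops it. The smallest chi-square per degree of freedom between libraries of 1 group was 39.6, so none was treated as a copy.

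Fits were made for each comparison on the 12 libraries of its groups, for 373 miRNAs above the detection filter. edgeR 4.0.16 in R 4.3.3 was used with TMM scaling, the quasi-likelihood F test and Benjamini-Hochberg adjustment over all 373. The SE was taken from the F statistic. The script was tested on simulated counts. Ratios used log2 of counts plus 0.5 and exact permutation over every split of the 12 libraries. The ratio and the correlation of miR-196a-5p with miR-196b-5p could not be computed because the latter is listed at 0, so adjustment was over 9 ratio tests and 3 pairs.

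Alternatives were DESeq2 1.42.0, other scalings and filters, the likelihood ratio test, 1 fit of the 3 groups and the replicate number as a block. A pseudocount of 1 and leaving out each library were also used. Marker sums and the spread of miR-10a-5p by library size alone were added after seeing the data. Sequences and neighbouring genes came from RefSeq tables of GRCr8. The counts use another build, so no coordinates are given.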

Additional observations from a re-analysis of the deposited data

Results flagged for a closer look

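Of 45 groups of 6 libraries looked at for a library far from the others, 9 held one, where chance gives about 1 in 20 (2.25 of 45). The gap to the nearest library, divided by the range of the group, was compared with a critical value of 0.625. The 45 groups share libraries, and the ratios reuse counts of the levels. They are thus not independent, and 9 against 2.25 is not a test of an excess. In naive replicate 3, miR-10b-5p was 73806 CPM (next 63682), the log2 ratio of miR-10b-5p to miR-10b-3p was 10.35 (next 9.97) and miR-99b-3p was 296 CPM (next 253). In naive replicate 1, miR-99a-3p was 42.1 CPM (next 37.1). In bPYX+GFP replicate 3, which had the most miRNA counts of all libraries (6919863), miR-99a-3p was 93.4 CPM (next 38.5) and miR-99b-3p was 424 CPM (next 264). In bPYX+NT3 replicate 4, miR-10a-5p was 223070 CPM (next 162059) and miR-99b-5p was 14797 CPM (next 11855). In bPYX+NT3 replicate 3, miR-196a-5p was 16.7 CPM (next 0.739). The causes were not tested.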

How the results depend on the processing

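The 12 fold changes of miR-10 arms had 252 values under the alternatives, with no adjusted p under 0.05 (smallest 0.185, edgeR) and 17 reversed signs in 6 of them. An unadjusted p under 0.05 appeared in 6 values, 1 for miR-10a-5p (0.16 in log2 against naive without bPYX+GFP replicate 5, edgeR, unadjusted p = 0.0226) and 5 for miR-10b-3p (edgeR, unadjusted p of 0.0306 or more). By library size alone, bPYX+NT3 against naive was 0.0039 for miR-10a-3p, 0.036 for miR-10b-3p and 0.041 for miR-10b-5p, and with more than 100 counts required it was 0.0090 for miR-10b-3p and 0.020 for miR-10b-5p. Leaving out each library gave -0.012 to 0.067 for miR-10b-5p in bPYX+GFP against naive and -0.11 to 0.0069 in bPYX+NT3 against bPYX+GFP. In bPYX+NT3 against naive it gave -0.029 to 0.11 for miR-10a-5p, -0.073 to 0.034 for miR-10b-5p, -0.089 to 0.032 for miR-10a-3p and -0.062 to 0.031 for miR-10b-3p. The 9 ratios had 126 values, with a smallest adjusted p of 0.375 (exact permutation) and 12 reversed signs in 3 of them. Without 1 library these ran from -0.079 to 0.026 for the arms of miR-10a (bPYX+GFP against naive), -0.037 to 0.0025 for miR-10a-5p to miR-10b-5p (bPYX+NT3 against bPYX+GFP) and -0.062 to 0.084 for the arms of miR-10b (bPYX+NT3 against naive). By library size alone, r of miR-10b-5p and miR-10b-3p was -0.0702. In bPYX+GFP against naive, 9 miRNAs were called, 23 by DESeq2 and 3 to 20 without 1 library (20 without naive replicate 2, 4 and 3 without naive replicates 3 and 4, and 3, 5 and 4 without bPYX+GFP replicates 1, 4 and 5). In bPYX+NT3 against naive, 0 were called, 1 by the likelihood ratio test, DESeq2 or 1 fit of the 3 groups, and 0 to 4 without 1 library (1 and 4 without bPYX+NT3 replicates 1 and 4). The causes were not tested. Same-numbered libraries correlated between -0.38 and 0.37, so the numbers were not taken as a pairing, and with the replicate block 7, 0 and 0 miRNAs were called instead of 9, 0 and 0. Depth limits miR-196a-5p, which had 28 counts in the 17 libraries other than bPYX+NT3 replicate 3.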
